A study of Homo sapiens with 21 samples.

Results

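The genes described here are 9 genes of glucose production in the liver, followed across 7 caffeine doses in HepG2, a human liver tumour line with hepatocyte features. They were chosen by gene symbol and found through their Ensembl identifiers, as 9 of the 37637 features in the count table. They are glucose-6-phosphatase catalytic subunit 1 (G6PC1, known earlier as G6PC), its paralog G6PC3, the glucose-6-phosphate carrier SLC37A4, phosphoenolpyruvate carboxykinase 1 (PCK1), fructose-1,6-bisphosphatase 1 (FBP1), pyruvate carboxylase (PC), the coactivator PGC1 alpha (PPARGC1A), tyrosine aminotransferase (TAT) and alanine aminotransferase (GPT). Caffeine was present for 24 h at 0 (control), 0.01, 0.1, 1, 10, 100 or 1000 µM, with 3 replicate libraries per group and 21 in all. All groups, control included, were moved from medium with serum into DMEM without serum, with no added hormone named in the labels. A single tumour line without its tissue is a limited model of the liver, and p-values measure the spread between these replicates.

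Gluconeogenesis makes glucose from lactate, glycerol and amino acids. PC and PCK1 carry pyruvate to phosphoenolpyruvate, FBP1 removes a phosphate from fructose-1,6-bisphosphate, and G6PC1 with SLC37A4 releases free glucose from glucose-6-phosphate in the endoplasmic reticulum. In hepatocytes, glucagon acting through cAMP raises PPARGC1A, G6PC1 and PCK1, glucocorticoid raises TAT and PCK1, and insulin lowers G6PC1 and PCK1. Caffeine is a methylxanthine that blocks adenosine receptors and, at high concentrations, inhibits the phosphodiesterases that break down cAMP. TAT and GPT take the amino groups from tyrosine and alanine so that their carbon can enter the path.

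Total counts per library ran from 23502519 to 44815552. The libraries fell into 3 sets by the relative counts of their 13 mitochondrial mRNAs, with no nuclear gene used. Set A held 11 libraries (all of control, 0.01 and 0.1 µM and replicates 1 and 2 of 1 µM), set B held 7 (replicate 3 of 1 µM, all of 10 µM, replicate 2 of 100 µM and replicates 1 and 2 of 1000 µM), and set C held 3 (replicates 1 and 3 of 100 µM and replicate 3 of 1000 µM). Between 9.95% and 14.2% of the counts of a set A library were mitochondrial mRNA, against 4.72% to 4.94% for set B and 11.8% to 12.8% for set C. No control library lies in sets B or C, so the comparisons with control that a member's account turns on are given without and with the set as a term, and the dose contrast is also given inside set B. Only the 1 µM group holds libraries of both set A and set B. The step from A to B in the fit with the set term therefore rests on its replicate 3 against its replicates 1 and 2. Every value with the set term against control at 10, 100 and 1000 µM leans on replicate 3 of 1 µM. All 9 of 9 hepatocyte markers (ALB, APOA1, APOA2, APOB, TTR, SERPINA1, TF, FGB and AFP) were detected in every group, with summed levels of 35505 to 44131 CPM (counts scaled to a common library size) in control and 29281 to 31287 CPM at 1000 µM. The markers did not move as one at the top dose, where 2 of the 9 rose and 5 fell (edgeR's quasi-likelihood test, adjusted p under 0.05; 2 and 6 when the fit held the set). AFP fell from 5365 ± 831 to 2037 ± 150 CPM (SD, n = 3), ALB from 12469 ± 2556 to 6334 ± 221, and SERPINA1, TF and FGB also fell. APOB rose from 8277 ± 824 to 13514 ± 802 CPM and TTR from 92.1 ± 6.94 to 127 ± 19.1. APOA1 and APOA2 did not pass, though APOA1 was lower in the fit with sets (-0.74, adjusted p = 0.00399). The part of these shifts in the members' differences at 1000 µM was not tested. Of 10 stromal and blood markers, 9 were matched. CD3E was at 0 throughout, and the others stayed at or below 0.249 CPM except CD68, at 18.2 to 71.7 CPM.

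No member passed the test at 0.01, 0.1 or 1 µM. The 10 µM group had 1 member of 9 past it, the 100 µM group 3 and the 1000 µM group 7 (edgeR's quasi-likelihood test, adjusted p under 0.05). Among all 17951 features tested the shares past the same threshold were 0.0279%, 0%, 0.106%, 14.8%, 46.6% and 57.6% at the rising doses. At 1000 µM G6PC1, PPARGC1A, PCK1 and TAT were higher than in control and G6PC3, SLC37A4 and GPT lower, a split of 4 up and 3 down, while 28.5% of all features were called higher and 29.1% lower. FBP1 and PC passed at no dose. Compared jointly over the 7 groups, 7 of 9 members differed, with 73.6% of all features called in that test. At the 3 lowest doses the count at an unadjusted p under 0.05 was 1 (SLC37A4), 0 and 2 (SLC37A4 and PPARGC1A), beside 15%, 9.48% and 15.7% of all features. DESeq2's Wald test called SLC37A4 alone at 0.01 and at 1 µM and no member at 0.1 µM, and it called 3.49%, 0.302% and 3.65% of the features to which it gave an adjusted p at these 3 doses. The 3 libraries of a dose all lay outside the 3 controls for 0, 1 (GPT), 1 (SLC37A4), 3 (G6PC1, SLC37A4 and TAT), 2 (SLC37A4 and TAT) and 6 members at the rising doses, and for 23.1%, 19.2%, 17.3%, 39.9%, 51.1% and 56.7% of all features.

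When the fit held the library set as well, the members called were 0 at each dose up to 10 µM, 2 at 100 µM (TAT and SLC37A4) and 5 at 1000 µM (G6PC1, PPARGC1A, PCK1, G6PC3 and GPT). Over all features that fit called 3.02%, 0.0223%, 0.629%, 0.0279%, 17.3% and 38% at the rising doses, and 59.8% jointly, with 7 of 9 members among them. In bulk RNA, a change in the share of cells that express a gene and a change in RNA per cell cannot be told apart, and this holds for every value here.

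**Figure D1:**
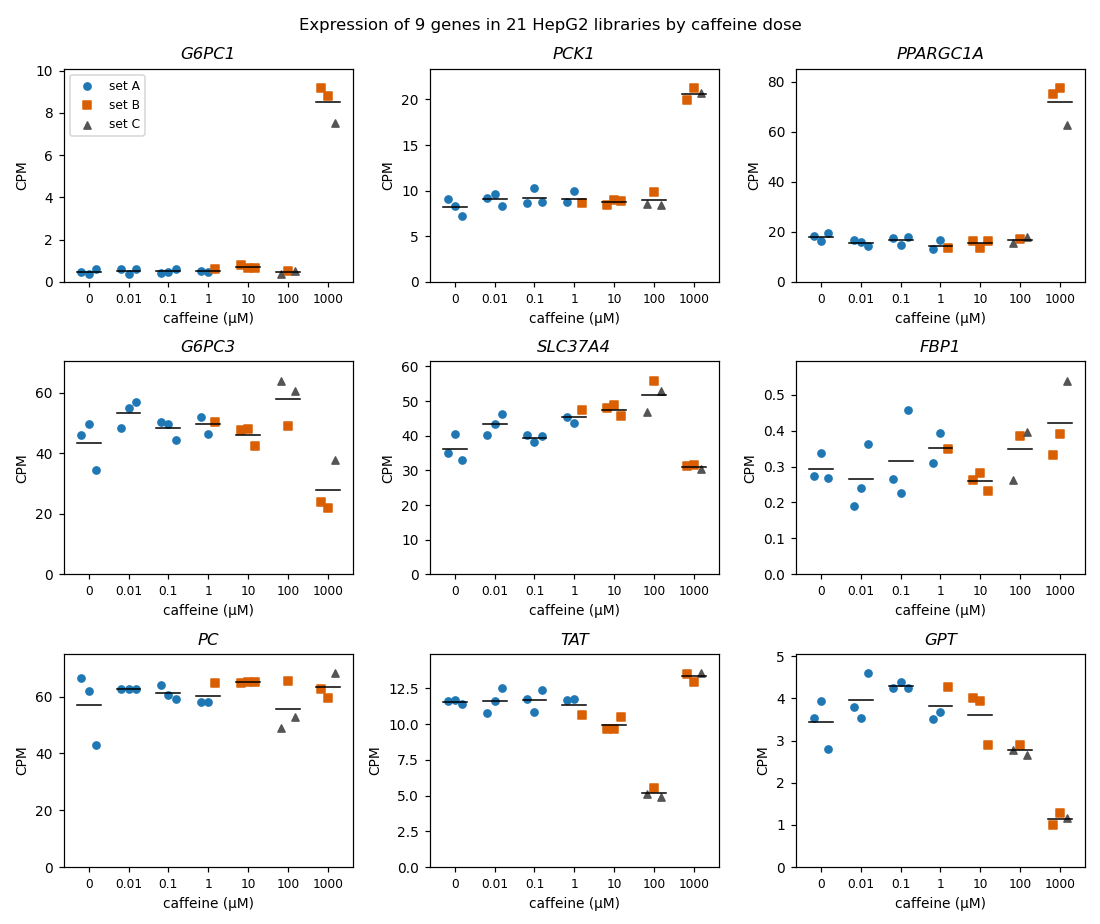
CPM of each gene (vertical axes, from 0) against caffeine dose (horizontal axes, µM), with 1 point per library, colour and shape for the library set and a bar at the mean of 3 libraries. G6PC1, PCK1 and PPARGC1A stand high at 1000 µM alone, TAT is low at 100 µM and GPT is low at 1000 µM.

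G6PC1 encodes the catalytic subunit that makes free glucose in liver and kidney. It lies at chr17:42900797-42913369 (GRCh38, plus strand). RefSeq promoter windows were searched for 6 of the 9 genes, G6PC1, G6PC3, SLC37A4, FBP1, PC and PPARGC1A, in 12 windows of 300 bases. No window was searched for PCK1, TAT or GPT. The 250 bases before the start are shown for G6PC1 and PPARGC1A, whose transcripts rose together at the top dose, and for G6PC3, the paralog that moved the other way. Capitals mark the matches to the motifs searched. For G6PC1 the bases are chr17:42900549-42900798 on the plus strand, for the most upstream of 3 RefSeq starts of G6PC3 chr17:44070423-44070672 on the plus strand, for the distal start of PPARGC1A chr4:24472906-24473155 on the minus strand and for its inner start chr4:23881102-23881351 on the minus strand (RefSeq, GRCh38.p14, each read 5′ to 3′).
G6PC1: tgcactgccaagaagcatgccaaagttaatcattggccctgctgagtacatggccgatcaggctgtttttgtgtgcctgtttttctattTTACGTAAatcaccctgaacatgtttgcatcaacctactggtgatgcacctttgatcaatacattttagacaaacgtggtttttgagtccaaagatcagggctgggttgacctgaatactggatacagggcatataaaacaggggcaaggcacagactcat
G6PC3: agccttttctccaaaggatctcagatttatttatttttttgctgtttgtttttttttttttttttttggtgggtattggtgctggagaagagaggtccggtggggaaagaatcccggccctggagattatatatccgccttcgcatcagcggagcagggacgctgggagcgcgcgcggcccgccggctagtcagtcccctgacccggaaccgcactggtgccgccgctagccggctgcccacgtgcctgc
PPARGC1A distal: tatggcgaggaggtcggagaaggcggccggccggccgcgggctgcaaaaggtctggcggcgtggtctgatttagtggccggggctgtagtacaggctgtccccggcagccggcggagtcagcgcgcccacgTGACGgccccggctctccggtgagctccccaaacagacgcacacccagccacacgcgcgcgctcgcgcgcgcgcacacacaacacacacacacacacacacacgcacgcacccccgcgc
PPARGC1A inner: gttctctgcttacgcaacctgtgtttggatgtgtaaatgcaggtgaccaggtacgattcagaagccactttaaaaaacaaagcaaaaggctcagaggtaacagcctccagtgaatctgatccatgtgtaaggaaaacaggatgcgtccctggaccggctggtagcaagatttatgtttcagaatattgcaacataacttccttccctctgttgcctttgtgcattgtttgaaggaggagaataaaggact

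The motifs were TGACGTCA (the full cAMP response element), TGACG (its shorter core, contained in the full element), TTACGTAA, GTAAACA (a forkhead motif) and CAAAACA (the core of the insulin response element), each searched on both strands of all 300 bases. G6PC1 held TTACGTAA from -161 to -154, counting back from -1 at the base before the start. Of 35116 RefSeq windows of the same length, 0.125% held TTACGTAA. The distal window of PPARGC1A held TGACG from -119 to -115, and 1 PC window held it at 3 places, the nearest from -111 to -107, while 24.6% of all windows held it. The other 9 windows of these genes held none of the 5 motifs. TGACGTCA was in 1.85% of all windows, GTAAACA in 3.42% and CAAAACA in 4.92%, and these 3 had no match in the member windows that were searched. A match describes letters in a window and is no evidence of binding. The distal start of PPARGC1A lies outside the span that GENCODE 29 gives for the gene (chr4:23755041-23904089, minus strand), the start shown for G6PC3 lies before that gene's span, and the counts do not tell which start was used. Neither PPARGC1A window covers the upstream end of its GENCODE 29 span, at 23904089, so the bases before that end were not searched.

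G6PC1 was low in control, at 0.458, 0.389 and 0.614 CPM from 15, 15 and 16 counts. It was at 9.18, 8.82 and 7.55 CPM in the 1000 µM libraries, from 360, 249 and 182 counts. The 3 libraries at the top dose lie far above every other library, and the highest library of the other 6 groups was at 0.786 CPM. G6PC1 rose by 4.14 ± 0.223 on the log2 scale (SE, 17.6-fold, adjusted p = 1.55e-11, edgeR's quasi-likelihood test) at 1000 µM, and the set term gave 3.88 (adjusted p = 6.00e-07). Its fold change ranked 119 from the highest of 17951 features. At 100 µM it was at 0.375, 0.533 and 0.529 CPM, overlapping the controls. At 10 µM all 3 libraries, at 0.786, 0.668 and 0.639 CPM, lay above the controls, with an adjusted p of 0.132. All 3 are in set B, and with the set term the difference was 0.20 (95% interval -0.67 to 1.06). That interval covers both 0 and the difference found without the term.

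PCK1, which makes phosphoenolpyruvate from oxaloacetate in the cytosol (chr20:57561080-57568112, plus strand), was at 9.11, 8.28 and 7.21 CPM in control. It was at 19.95, 21.3 and 20.7 CPM at 1000 µM. The 3 libraries at the top dose agreed closely although they come from sets B and C, and the highest of the other 18 libraries was at 10.2 CPM. PCK1 rose by 1.33 ± 0.105 on the log2 scale (SE, 2.51-fold, adjusted p = 2.94e-09, edgeR's quasi-likelihood test). The set term gave 1.47 (adjusted p = 5.19e-06). From control to 100 µM its group means stayed between 8.20 and 9.21 CPM, and neighbouring groups in that order overlapped.

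PPARGC1A encodes the coactivator that hepatocytes raise in fasting, and which acts with several transcription factors on G6PC1 and PCK1. It was at 18.2, 16.4 and 19.4 CPM in control and at 75.1, 77.6 and 62.7 CPM at 1000 µM. Every library at 1000 µM was above every other library, and the lowest of the 3, replicate 3, is the one from set C. The rise was 2.0 ± 0.122 on the log2 scale (SE, 4.00-fold, adjusted p = 7.82e-11, edgeR's quasi-likelihood test). The fit with sets gave 2.18 (adjusted p = 2.40e-07). At the 5 lower doses the group means lay between 14.5 and 16.8 CPM, each below the control mean of 17.97 CPM and each overlapping the control libraries. None of these passed the test.

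G6PC3, the paralog expressed in most tissues, fell at 1000 µM, where G6PC1 rose. It lies at chr17:44070735-44076344 (plus strand). Its levels were 46.1, 49.8 and 34.5 CPM in control, 64.0, 49.0 and 60.5 CPM at 100 µM and 23.9, 22.04 and 37.9 CPM at 1000 µM. At 100 µM the set B library was the lowest, and at 1000 µM the set C library was the highest and overlapped the lowest control. At 1 µM the set B library, at 50.3 CPM, lay between the set A libraries at 51.9 and 46.5 CPM. G6PC3 fell by 0.64 ± 0.166 on the log2 scale at 1000 µM (SE, adjusted p = 0.00263, edgeR's quasi-likelihood test). In the fit with sets it fell by 0.89 (adjusted p = 0.00225), and with only the 2 compared groups in the fit it did not pass (-0.64, adjusted p = 0.0514). The difference at 100 µM was 0.41 ± 0.164 (adjusted p = 0.0480) without the set term and 0.02 with it (adjusted p = 0.979). That call was also lost when any 1 of 16 of the 21 libraries was left out, and the log2 difference was 0.18 (adjusted p = 0.402) without the libraries of set C.

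SLC37A4 carries glucose-6-phosphate into the endoplasmic reticulum for either phosphatase. It was at 35.0, 40.4 and 33.1 CPM in control, 47.9, 48.7 and 45.7 CPM at 10 µM, 46.8, 55.9 and 52.8 CPM at 100 µM and 31.2, 31.6 and 30.3 CPM at 1000 µM. The 10 and 100 µM libraries all lay above the controls, and the 1000 µM libraries all lay below them. The rise at 100 µM was 0.52 ± 0.0861 on the log2 scale (SE, adjusted p = 7.15e-05, edgeR's quasi-likelihood test), and the fit with sets gave 0.50 (adjusted p = 0.0316). The rise at 10 µM, 0.39 ± 0.0859 (adjusted p = 0.00769), did not pass with the set term (0.30, adjusted p = 0.987). At 1000 µM SLC37A4 was lower by 0.22 ± 0.0865 (log2 difference -0.22, adjusted p = 0.0347), and -0.28 with the set term did not pass (adjusted p = 0.140). Without control replicate 2 the difference was -0.14 (adjusted p = 0.213), and leaving out any 1 of the 1000 µM libraries also ended the call.

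SLC37A4 lies at chr11:119024114-119030906 (minus strand), and 544 of its exon bases overlap TRAPPC4 on the other strand. Whether the counting used strand is not given in the sources used here. TRAPPC4 differed from control by -0.20 at 100 µM and -0.13 at 1000 µM on the log2 scale (adjusted p = 0.0705 and 0.227, edgeR's quasi-likelihood test).

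FBP1, the bisphosphatase that runs against phosphofructokinase, was close to absent, with 7 to 18 counts in each of the 21 libraries and group means of 0.259 to 0.420 CPM. Its difference at 1000 µM was 0.48 on the log2 scale (95% interval -0.22 to 1.18), so neither no change nor a doubling is outside the interval. The set term gave 0.43 (95% interval -0.86 to 1.73). FBP1 lies at chr9:94603133-94640249 (minus strand), and 283 of its exon bases overlap the antisense gene PCAT7, which had 85 to 310 counts per library. Without strand, reads of FBP1 and PCAT7 in these bases cannot be told apart, so the level of FBP1 is uncertain.

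PC, the mitochondrial enzyme that makes oxaloacetate from pyruvate, was at 66.5, 62.1 and 42.9 CPM in control and at 62.5, 59.5 and 68.2 CPM at 1000 µM. The groups overlapped at every dose. The log2 difference at 1000 µM was 0.15 (95% interval -0.11 to 0.41), whose upper end is below the rise of PCK1. The set term gave 0.03 (95% interval -0.43 to 0.49). PC lies at chr11:66848233-66958376 (minus strand), with 621 exon bases shared with LRFN4, which fell by 0.97 on the log2 scale at 1000 µM (adjusted p = 4.89e-04, edgeR's quasi-likelihood test) at 124 to 515 counts per library, against 1120 to 3066 for PC.

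TAT, a liver enzyme of tyrosine breakdown, was lowest at 100 µM and highest at 1000 µM. It was at 11.6, 11.7 and 11.4 CPM in control, 9.67, 9.66 and 10.5 CPM at 10 µM, 5.13, 5.52 and 4.90 CPM at 100 µM and 13.5, 12.9 and 13.6 CPM at 1000 µM. The 100 µM libraries are the lowest of all 21, in sets B and C alike, and those at 1000 µM the highest. At 100 µM TAT fell by 1.15 ± 0.0897 on the log2 scale (SE, adjusted p = 7.65e-09, edgeR's quasi-likelihood test). In the fit with sets it fell by 0.98 (adjusted p = 2.50e-04). At 10 µM all 3 libraries lay below the controls, with an adjusted p of 0.0930 without the set term. All 3 are in set B, and the set term gave -0.08 (95% interval -0.38 to 0.23). At 1000 µM the rise of 0.20 ± 0.0858 (adjusted p = 0.0482) was 0.36 with the set term (adjusted p = 0.0669), and leaving out any 1 of 18 of the 21 libraries ended the call. The difference between 1000 and 100 µM was 1.36 ± 0.0898 (adjusted p = 5.34e-10). TAT lies at chr16:71565660-71577130 (minus strand), and its antisense neighbour TAT-AS1, with 423 shared exon bases, had 1 to 15 counts.

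GPT, which makes pyruvate from alanine in the cytosol, was at 3.54, 3.95 and 2.80 CPM in control, 2.77, 2.90 and 2.65 CPM at 100 µM and 0.995, 1.28 and 1.16 CPM at 1000 µM. The 1000 µM libraries, at 28 to 39 counts, are below all others. GPT fell by 1.60 ± 0.173 on the log2 scale at 1000 µM (SE, adjusted p = 2.12e-07, edgeR's quasi-likelihood test). In the fit with sets it fell by 1.83 (adjusted p = 5.26e-05). The difference at 100 µM, -0.31 (95% interval -0.64 to 0.03), did not pass, nor did -0.53 with the set term (95% interval -1.14 to 0.09). GPT lies at chr8:144502973-144507174 (plus strand), and 207 of its exon bases overlap AC084125.2 on the other strand, whose reads cannot be told apart from those of GPT without strand. GPT had 28 to 159 counts per library. GPT2, which encodes the mitochondrial form of the enzyme and was named after its values were seen, rose by 0.58 at 1000 µM (adjusted p = 9.28e-05) and by 0.48 with the set term (adjusted p = 0.0249), from 235 ± 35.5 to 352 ± 7.72 CPM (SD, n = 3, edgeR's quasi-likelihood test).

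**Figure D2:**
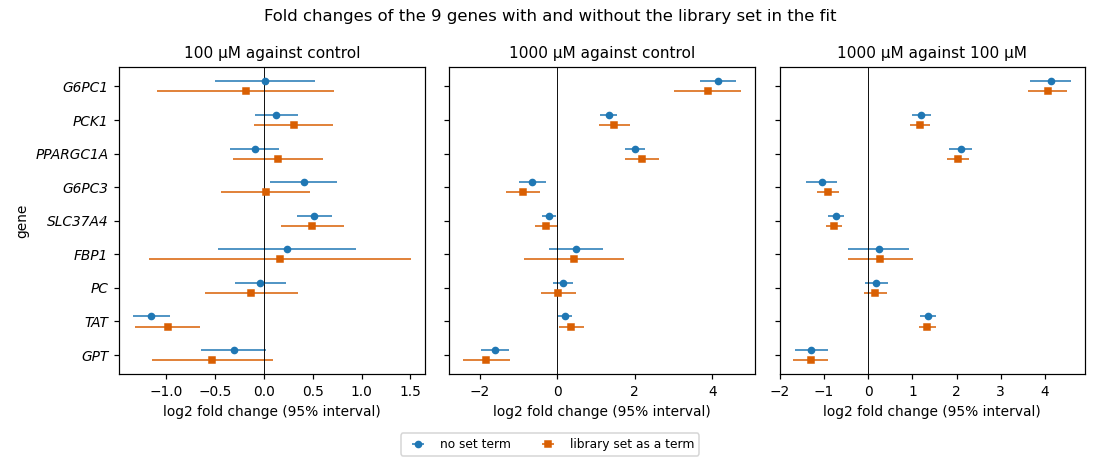
Log2 fold changes with 95% intervals (horizontal axes, a different range in each panel) for the 9 genes, without the library set in the fit (circles) and with it (squares). G6PC1, PCK1 and PPARGC1A lie right of 0 and G6PC3 and GPT left of 0 in both fits at 1000 µM against control, and in the panels against control the intervals are wider with the set term.

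The difference between 100 and 1000 µM compares 2 groups without the controls, which still enter the scaling and the shared estimate of spread. For it 7 of 9 members passed, 4 higher and 3 lower, with 44% of all features called (21.8% higher and 22.3% lower), and the same 7 passed with the set term, which called 46.3%. G6PC1 was higher by 4.13, PPARGC1A by 2.09, TAT by 1.36 and PCK1 by 1.20 on the log2 scale. SLC37A4 fell by 0.74, G6PC3 fell by 1.05 and GPT fell by 1.29 (adjusted p from 3.75e-11 to 4.57e-05 over the 7 genes, edgeR's quasi-likelihood test). FBP1 (0.24, 95% interval -0.45 to 0.93) and PC (0.18, -0.08 to 0.44) did not pass. G6PC1, PCK1 and PPARGC1A thus stood apart between 100 and 1000 µM, with the 100 µM libraries overlapping the control range.

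Inside set B the 1000 µM libraries (replicates 1 and 2) could be set against the 3 libraries of 10 µM. Again 7 of 9 members passed, 4 higher and 3 lower, with 69.1% of the 17090 features tested called (34.1% higher and 35% lower). G6PC1 rose by 3.67 ± 0.151, PPARGC1A by 2.28 ± 0.0748, PCK1 by 1.21 ± 0.0801 and TAT by 0.39 ± 0.0857 (log2 differences ± SE, adjusted p = 7.66e-10, 1.74e-10, 4.30e-08 and 0.00135, edgeR's quasi-likelihood test). SLC37A4 fell by 0.62 ± 0.0598, G6PC3 fell by 1.02 ± 0.0748 and GPT fell by 1.71 ± 0.213 (adjusted p = 1.38e-06, 1.11e-07 and 1.35e-05). PC (-0.11, adjusted p = 0.0782) and FBP1 (0.44, adjusted p = 0.346) did not pass. Within 1 library set, then, the 7 differences had the same directions as between 100 and 1000 µM.

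Levels of different genes are compared here as RPKM, which is CPM per kilobase of exon, with exon length joined over all transcripts of GENCODE 29, which lowers the level of genes with long minor transcripts. In control, PC (9.64 ± 2.11 RPKM, SD, n = 3) and G6PC3 (9.56 ± 1.75) were highest and did not differ beyond their spread, and SLC37A4 followed at 5.85 ± 0.619. TAT (2.14 ± 0.0239) and PPARGC1A (1.65 ± 0.141) came next, and GPT (1.24 ± 0.211) and PCK1 (1.20 ± 0.140) did not differ beyond their spread. FBP1 (0.169 ± 0.0219) and G6PC1 (0.148 ± 0.0348) were lowest, within each other's spread. At 1000 µM PC stood at 10.7 ± 0.750, PPARGC1A at 6.60 ± 0.731, G6PC3 at 6.14 ± 1.91 and SLC37A4 at 5.02 ± 0.101. PCK1 stood at 3.03 ± 0.0961, G6PC1 at 2.58 ± 0.261, TAT at 2.47 ± 0.0637, GPT at 0.415 ± 0.0512 and FBP1 at 0.242 ± 0.0615 RPKM. G6PC1 thus moved from the lowest level to that of TAT, and stayed below its paralog G6PC3.

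**Figure D3:**
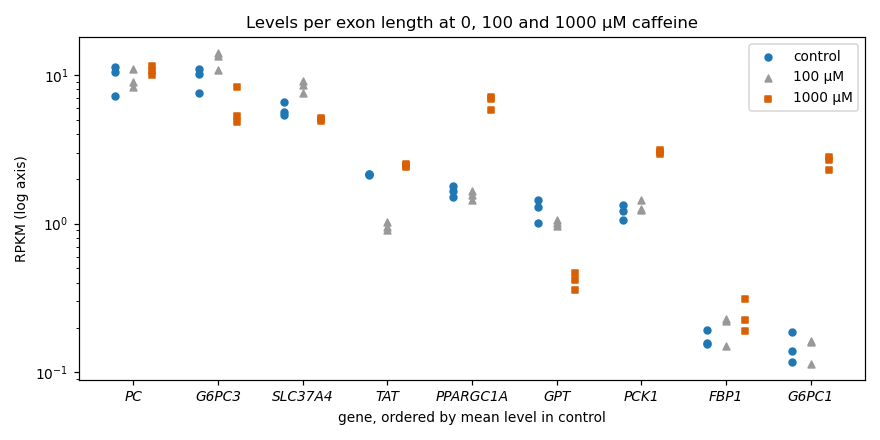
RPKM of each gene (log axis) in the 3 control, 3 100 µM and 3 1000 µM libraries, with genes ordered by their mean in control. G6PC1 moves from 0.148 in control to 2.58 RPKM at 1000 µM, while PC stays near 10.

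Ratios of counts within a library do not depend on the scaling between libraries. The ratio of G6PC1 to G6PC3 counts was 0.00782 to 0.0178 in control, 0.00585 to 0.0109 at 100 µM and 0.199 to 0.400 at 1000 µM. That of G6PC1 to PCK1 moved from 0.0470 to 0.0851 in control to 0.365 to 0.460 at 1000 µM, so G6PC1 rose more than PCK1 in all 3 libraries. PPARGC1A stood at 1.97 to 2.69 counts per count of PCK1 in control and 3.03 to 3.76 at 1000 µM. PCK1 had 0.128 to 0.153 counts per count of PCK2, the mitochondrial form, in control and 0.159 to 0.187 at 1000 µM. In each of these 4 ratios the 1000 µM range does not overlap the control range, although PCK1 to PCK2 at 0.1 µM, 0.135 to 0.168, overlaps that at 1000 µM. PC to SLC37A4 went from 1.30 to 1.90 in control to 1.00 to 1.17 at 100 µM and 1.88 to 2.25 at 1000 µM, where the last range overlaps control at its edge.

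Over the 21 libraries, log2 CPM of G6PC1 had a Pearson r of 0.96 with PPARGC1A and 0.94 with PCK1. Without the 1000 µM group these were -0.09 and -0.31, so the likeness rests on 1 dose group of 3 libraries. The libraries of a dose share their treatment and partly their set, and these values describe the data without a test. Among 12515 candidate genes, those most like G6PC1 were MTHFD2, a mitochondrial enzyme of one-carbon metabolism (r = 0.992, from 204 CPM in control to 761 at 1000 µM), ASNS, asparagine synthetase (r = 0.987), and LURAP1L (r = 0.984). Without the 1000 µM group r was 0.749, 0.550 and 0.496. The 3 most like PCK1 were PTPRH (0.976), AKAP12 (0.974), a scaffold of protein kinase A, and IL6R (0.973), the interleukin-6 receptor, with r of 0.654, 0.557 and 0.504 without the 1000 µM group. The 3 most like PPARGC1A were SPIRE1 (0.991), SGMS1 (0.985), a sphingomyelin synthase, and CSGALNACT2 (0.983), with r of 0.796, 0.743 and 0.511 without that group.

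G6PC3 was most like ALDOA, the glycolytic aldolase (r = 0.982), LCAT (0.979), the plasma cholesterol acyltransferase, and NRM (0.972). For these, r without the 1000 µM group stayed at 0.929, 0.925 and 0.906, and G6PC3 differed between sets B and C within 100 and within 1000 µM, as given above. GPT was most like MVD, an enzyme of sterol synthesis (0.977, from 167 to 22.7 CPM), CYC1, the mitochondrial cytochrome c1 (0.976), and TAGLN (0.976), with r of 0.867, 0.839 and 0.835 without the 1000 µM group.

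Around these genes, 111 others of the pathway were grouped by role in 6 lists, and 95 of them passed the filter on low counts. Without the set term none of the 95 was called at 0.01, 0.1 or 1 µM, 21 were called at 10 µM (22.1%), 52 at 100 µM (54.7%, 33 higher and 19 lower) and 72 at 1000 µM (75.8%, 36 higher and 36 lower). The shares over all features were 14.8%, 46.6% and 57.6%. With the set term 4 were called at 0.01 µM (HPD, GSTZ1 and IGFBP1 higher and TFAM lower, none of them called without it), 0 at 0.1, 1 and 10 µM, 23 at 100 µM (22 of them also called without it) and 63 at 1000 µM (62 of them also called without it). At 0.01, 10, 100 and 1000 µM the same fit called 3.02%, 0.0279%, 17.3% and 38% of all features. At 1000 µM the median log2 difference of all features was -0.01, with 28.5% called higher and 29.1% lower. The lists were chosen with earlier results of these data known, and whether any list differs from other genes was not tested.

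Enzymes that gluconeogenesis shares with glycolysis or with carbon transfer between mitochondria and cytosol formed a list of 17, of which 16 were tested. At 1000 µM 5 rose and 10 fell, with a median of -0.53 on the log2 scale (-0.64 with the set term). ALDOC, an aldolase, fell by 2.87 (145 ± 18.4 to 19.9 ± 2.46 CPM, SD, n = 3), PGAM1, a phosphoglycerate mutase, fell by 1.12 and TPI1, triosephosphate isomerase, fell by 0.85. PCK2 rose by 1.06 (58.2 ± 9.77 to 121 ± 8.18 CPM), and the aspartate aminotransferases GOT2 and GOT1, which pass carbon and nitrogen between mitochondria and cytosol, rose by 0.80 and 0.41. GOT2 was higher still at 100 µM (235 ± 23.0 CPM, against 172 ± 22.7 at 1000 µM and 99.3 ± 1.91 in control). GOT1 at 100 µM lay below control (255 ± 2.24 against 305 ± 13.6 CPM). ALDOA, GAPDH, PGK1, ENO1 and GPI, further glycolytic enzymes named after their values were seen, fell by 0.34 (PGK1) to 0.97 (GAPDH). LDHB was below the filter.

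Genes that run glucose the other way showed 2 rises and 9 falls among 16, with a median of -0.46. PKLR, the liver pyruvate kinase that opposes PCK1, fell by 2.26 (57.7 ± 7.91 to 12.1 ± 1.43 CPM). PFKFB4 fell by 2.21 and PFKFB3 fell by 1.18; both encode enzymes that set fructose-2,6-bisphosphate, which activates phosphofructokinase and inhibits FBP1. The glucose transporters SLC2A1 (200 ± 29.7 to 686 ± 181 CPM) and SLC2A2 (45.3 ± 6.98 to 115 ± 18.5 CPM) rose by 1.78 and 1.34. At 100 µM SLC2A1 was already at 562 ± 32.2 CPM, while SLC2A2 was at 45.6 ± 1.52 CPM. SLC2A2 is the carrier by which hepatocytes take up and release glucose. HK1 and PDK4 were below the filter.

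**Figure D4:**
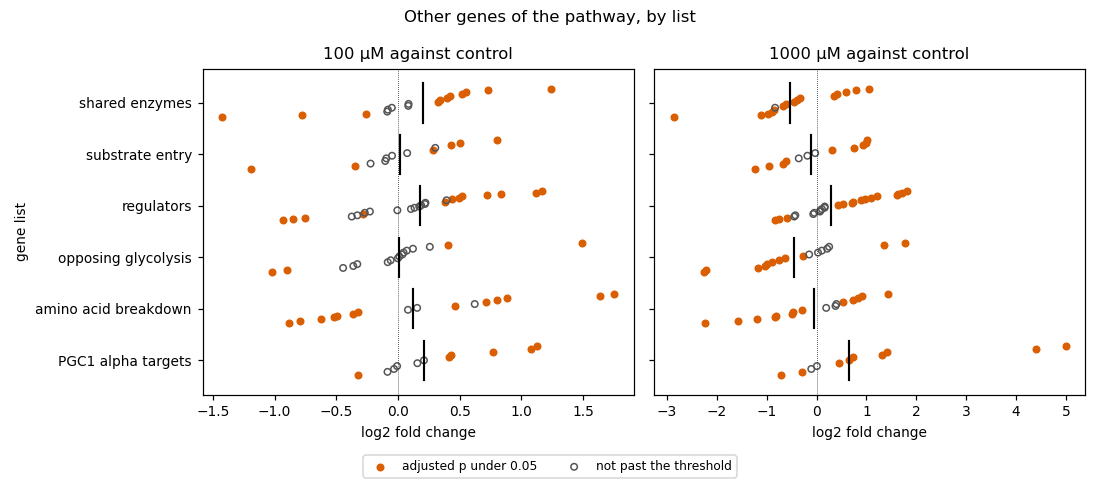
Log2 fold changes (horizontal axes) of the tested genes of 6 pathway lists at 100 µM and at 1000 µM against control, with filled points past an adjusted p of 0.05 and a bar at each list's median. At 1000 µM the medians of shared enzymes and opposing glycolysis lie left of 0 and those of regulators and PGC1 alpha targets right of it.

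Among 12 genes of substrate entry 5 rose and 4 fell at 1000 µM, with a median of -0.11. Glycerol kinase (GK) rose by 1.01, the lactate and pyruvate carrier SLC16A1 by 0.93 and the glutamine carrier SLC1A5 by 0.98. MPC1, a subunit of the carrier that brings pyruvate into mitochondria to PC, fell by 1.23 (96.1 ± 3.72 to 41.0 ± 2.23 CPM). The mitochondrial carriers SLC25A11 and SLC25A10 fell by 0.68 and 0.95. The glycerol channel AQP9 was below the filter.

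Of 24 regulators 12 rose and 3 fell, with a median of 0.30. The glucocorticoid receptor NR3C1 rose by 1.81 (17.4 ± 2.61 to 61.1 ± 2.22 CPM), the deacetylase SIRT1, which acts on PGC1 alpha, by 1.21 and TRIB3, a pseudokinase that restrains AKT, by 1.61. CREM fell by 0.82, the CREB coactivator CRTC2 fell by 0.74 and FOXA2 fell by 0.59 (adjusted p = 0.0431, edgeR's quasi-likelihood test). CREM and CRTC2 were about as low at 100 µM (20.3 ± 2.85 and 22.8 ± 3.67 CPM) as at 1000 µM (20.6 ± 1.83 and 23.0 ± 8.98 CPM). FOXA2 did not pass with the set term (-0.22, adjusted p = 0.611). CREB1 and FOXO3 are 2 of the other regulators that rose, by 1.096 and 0.90, whereas FOXO1 (0.16, adjusted p = 0.253) and HNF4A (0.16, adjusted p = 0.139) did not pass; these 4 were named after their values were seen. The glucagon receptor GCGR had a mean of 0 CPM in control and 0.0138 CPM at 1000 µM, and PPARGC1B, the related coactivator, 0.0689 and 0.0846 CPM. Both were below the filter.

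Amino acid breakdown gave 5 rises and 8 falls among 16, with a median of -0.05. AGXT, which transfers the amino group of alanine as GPT does but to glyoxylate, fell by 2.23 (31.5 ± 4.85 to 6.73 ± 0.541 CPM), AASS of lysine breakdown fell by 1.58 and the glutaminase GLS2 fell by 1.19. CPS1, the entry enzyme of the urea cycle, rose by 1.43, CTH by 0.83 and GSTZ1, which acts below TAT in tyrosine breakdown, by 0.90.

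Genes outside the path that PGC1 alpha or cAMP is known to raise gave 7 rises and 2 falls among 11, with a median of 0.65 (0.52 with the set term). IGFBP1, a secreted binding protein that insulin lowers in liver, rose by 4.99 (104 ± 9.52 to 3309 ± 655 CPM). CPT1A, which brings fatty acids into mitochondria, rose by 1.31 and CYCS, cytochrome c, by 1.41. CYCS was already at 127 ± 13.8 CPM at 100 µM (58.1 ± 8.28 in control and 155 ± 25.6 at 1000 µM), while CPT1A was at 44.8 ± 5.54 CPM there. ALAS1, the first enzyme of heme synthesis, fell by 0.71 and LPIN1 fell by 0.30, against the direction that gives the list its name. All genes named here as the leading rises and falls of the 6 lists, other than FOXA2, also passed with the set term, with adjusted p from 3.09e-11 (IGFBP1) to 0.0244 (LPIN1) by edgeR's quasi-likelihood test.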

How the data were processed

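The authors deposited read counts per gene for 21 HepG2 libraries as whole numbers without normalization. The submitters' processing notes name HISAT2, DESeq2 and GRCh38; the counting tool, annotation release and use of strand are not given in the sources used here. Samples were grouped by the dose in their titles, and another 21 columns with values of single samples were left out. Symbols were matched by Ensembl identifier for 32468 of 32937 identified features (4700 others are unannotated loci); 66.5% of identifiers share their version with GENCODE 29, from which positions and exon lengths came. No replicates agreed within counting noise (chi-square per feature at least 1.78 over 21 pairs).

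Counts were filtered with filterByExpr by group, which kept 17951 features, all 9 members among them, given TMM scaling factors and fitted in edgeR 4.0.16 under R 4.3.3 (quasi-likelihood F-test), in 1 fit with a mean per group. P-values are 2-sided, with Benjamini-Hochberg adjustment over all features, with a threshold of 0.05. The SE is the absolute log2 fold change over the square root of F. CPM used TMM-scaled library sizes, and log2 CPM a prior count of 2. Library sets came from average-linkage clustering of centred log2 counts of mitochondrial mRNAs, at the highest silhouette. The fit was tested on simulated counts.

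The members and the lists were chosen with earlier results of these data known. The 3 rises and 3 falls of smallest adjusted p at 1000 µM with a mean of at least 1 CPM are named from each list, and the 3 genes of highest r for each member called at 1000 µM with and without the set term. SOD2 matched more than 1 feature and PECAM1 none. Alternatives were DESeq2 size factors, DESeq2 1.42.0, a filter at a mean of 1 CPM or none at all, the set term, the replicate number as a block, the compared groups alone, each library left out and, chosen after seeing the data, set C left out.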

Additional observations from a re-analysis of the deposited data

How the results depend on the processing

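No called fold change of a member changed direction under any alternative run. DESeq2's Wald test called 1 member (SLC37A4) at 0.01 µM and 1 at 1 µM, against 0 at both in edgeR; it called 3.49% and 3.65% of the features with an adjusted p there. The library set as a term left 0 members at 10 µM and 23 listed pathway genes at 100 µM, and a fit of the compared groups alone left 4 members at 1000 µM; fewer libraries enter that fit, and for the others the cause was not tested. With 1 library left out the members called numbered 5 to 7 at 1000 µM, 2 to 3 for 100 µM, and 7 to 8 within set B, where the eighth, PC, passed without replicate 3 of 10 µM (adjusted p = 0.0343, edgeR's quasi-likelihood test). They stayed at 1 at 10 µM, 0 at each lower dose, and 7 jointly and between 1000 and 100 µM, and there were between 50 and 56 pathway genes at 100 µM and between 69 and 76 at 1000 µM. Shares of all features called with the compared groups alone or with 1 library left out are not given here. The counts from those fits thus have no background beside them. Of the members' called log2 fold changes recomputed under alternatives, 532 kept their call and 53 lost it, all of them G6PC3 at 100 µM and 1000 µM, SLC37A4 at 10 and 1000 µM and TAT at 1000 µM; G6PC3 at 1000 µM lost it with the compared groups alone (adjusted p = 0.0514). A mean of at least 1 CPM leaves out FBP1. G6PC1 meets it only through the 1000 µM group, so its 3 kept calls under that filter are no sign of stability. Library sizes without TMM moved 7 of 63 group means by more than 1 SD. Within set B there is no set term, and the replicate block was not run. Low counts, 7 to 18 per library for FBP1 and 10 to 27 for G6PC1 below 1000 µM, limit what differences could be seen.

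No pairing of the samples by replicate number was found: in 0 of 21 pairs of groups was every same-numbered correlation of deviations over 0.1, and the mean ran from -0.108 to 0.152. Set differences within the 1, 100 and 1000 µM groups enter these deviations, so the check cannot exclude pairing. With the replicate block 0, 0, 0, 1, 2 and 6 members were called at the rising doses, 7 jointly and 7 between 1000 and 100 µM, with 52 and 71 pathway genes at 100 and 1000 µM. The share of all features called in that fit is not given here, so these counts have no background beside them.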
